A study of Physcomitrium patens with 24 samples.

Results

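Protonemata, the filamentous juvenile tissue of the moss *Physcomitrella patens*, were compared after 6 h at 37 °C and after 6 h at 30 °C. The members are the 2 libraries labelled 37 °C 6 h and the 2 labelled 30 °C 6 h, 4 of the 24 libraries of a series that covers 24, 30 and 37 °C at 1, 6, 12 and 24 h with 2 replicates each. All of them came from the Gransden strain, an unmodified laboratory strain, as tissue labelled 7 days old and kept axenically on solid PpNH4 medium under 16 h of light and 8 h of dark. The study's methods give 24 °C as the growth temperature before treatment, and the labels of the heated samples give only the treatment temperature (30 or 37 °C). The methods call the replicates biological without saying whether they came from separate cultures on separate days. The p-values below therefore measure the spread between libraries of a group. This spread was estimated in 1 fit of all 24 libraries, not from the 4 compared libraries alone. The comparison answers how the messenger RNA of a strongly heated moss differed from that of a mildly warmed moss at the same time of treatment, with no unheated reference in the contrast.

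Heat unfolds proteins, and plant cells answer by making chaperones. Small heat shock proteins (HSP20) hold unfolding proteins in a soluble state, HSP70 proteins refold them with the help of DNAJ proteins and nucleotide exchange factors, HSP90 proteins mature signalling proteins and receptors, Clp/HSP100 ATPases pull proteins out of aggregates, and chaperonins fold proteins inside a closed chamber. Many of the genes are switched on by heat shock factors (HSFs), transcription factors that bind promoter elements built from repeats of GAA and its complement TTC. Terminally damaged proteins are marked with ubiquitin for breakdown in the proteasome. Plants also sense warmth through phytochromes and the evening complex of the circadian clock, of which ELF3 is a part.

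The study listed HSF sites of 12 bases in the promoters of 49 genes of a co-expression module of heat-activated genes that it called yellow. A few of these sites are printed here 5′ to 3′ with 10 bases on each side, as the study's table gives them, because their genes carry the results below. Capitals mark the site, and positions on the chromosomes were not used here.
HSP20 gene Pp3c18_16670, first site: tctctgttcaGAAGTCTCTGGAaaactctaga
HSP20 gene Pp3c18_16670, second site: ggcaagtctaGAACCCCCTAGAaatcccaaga
HSP20 gene Pp3c21_19080: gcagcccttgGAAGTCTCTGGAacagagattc
HSP20 gene Pp3c24_4390: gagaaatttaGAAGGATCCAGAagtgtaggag
Chaperonin gene Pp3c26_2180: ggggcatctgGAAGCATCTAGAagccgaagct
Clp ATPase gene Pp3c19_4790: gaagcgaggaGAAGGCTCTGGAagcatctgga
Fes1A gene Pp3c16_19440: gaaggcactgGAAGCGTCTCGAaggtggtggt
BAG gene Pp3c13_3400, first site: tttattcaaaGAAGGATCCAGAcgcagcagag
RING/U-box gene Pp3c7_700: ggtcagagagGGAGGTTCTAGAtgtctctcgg
HSP90 gene Pp3c9_6640, first site: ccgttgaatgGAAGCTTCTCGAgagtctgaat
Of the 67 sites, 51 began with GAA and 23 held GAANNTTC, the pair of inverted repeats that reads the same on both strands. The last site printed above is of this kind, and the 23 sites fell to 14 genes. The share of all promoters that hold these letters was not analysed here.

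The 4 libraries had totals of 8179580 and 7845829 counts at 37 °C and of 7623160 and 8446888 at 30 °C, within the 4332911 to 10696081 of the series. Genes with a CPM (counts scaled to a common library size) above 0.5 in at least 2 of the 24 libraries were kept, 21429 of 32926, and CPM values below are scaled by TMM factors, which were 0.96 and 0.971 at 37 °C and 1.06 and 1.05 at 30 °C. On log2 CPM values the replicates lay 76.8 apart at 37 °C and 68.3 apart at 30 °C (Euclidean distance over all genes tested) and a mean of 171 separated the temperatures. The mean distance from the 24 °C libraries of 6 h was 89.5 for 30 °C and 200 for 37 °C. No gene identifier of the files was tied here to a marker of chloronema or caulonema cells, the 2 cell types of protonemata, so the tissue label was not checked by markers. In bulk RNA, fewer cells of a type and less RNA per cell cannot be told apart.

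After 6 h, 2089 genes were higher at 37 °C than at 30 °C and 2948 were lower, which is 9.75% and 13.8% of the genes tested, or 23.5% in either direction. The test was edgeR's quasi-likelihood F test in a model of all 12 groups, and a gene was called when its Benjamini-Hochberg adjusted p was under 0.05 and its log2 fold change reached 1 or -1. With limma's treat method, which tests against the limit of 1 itself, 430 genes were higher and 823 lower. Among called genes with more than 3 counts in each of the 4 libraries, the median log2 fold change was 1.43 for 1753 higher genes and -1.58 for 2383 lower genes. Of these, 387 were higher and 736 lower by at least 2 on the log2 scale, and 40 and 45 by at least 4. Called genes took a changed share of the reads. They were chosen by their difference between these libraries, so the direction of this change between 37 and 30 °C was fixed by the choice, and only its size is described. The higher genes held 17.6% and 19.3% of the counts in the 37 °C libraries and 6.29% and 5.85% in the 30 °C libraries, beside 4.7% and 4.95% at 24 °C. The lower genes held 4.64% and 4.39% at 37 °C and 15.2% and 15.9% at 30 °C, beside 18.2% and 18.3% at 24 °C.

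**Figure D1:**
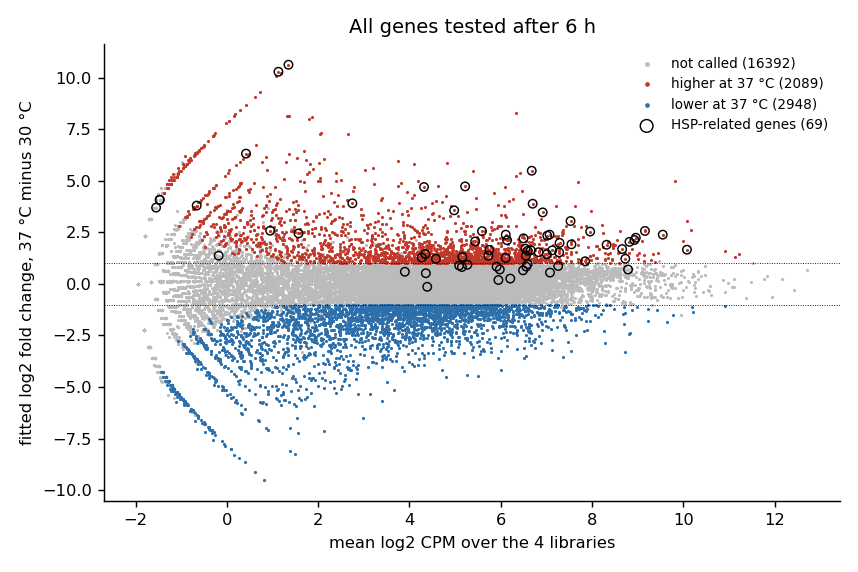
The fitted log2 fold change between 37 and 30 °C after 6 h (y axis) is plotted against the mean log2 CPM of the 4 libraries (x axis), with 1 point per gene tested, called genes in colour and the 69 genes of the HSP-related lists circled. Dotted lines mark the limits of 1 and -1, and 49 of the circled genes are called, all of them above the upper line.

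Both libraries of one temperature lay above both of the other for 2087 of the 2089 higher genes and 2942 of the 2948 lower genes. Of all genes tested, 36.8% had every 37 °C value above every 30 °C value and 36.1% had the opposite. The calls were made from these same libraries, so the lack of overlap largely follows from the call and is no separate support. Calls were found at all levels of expression and on all numbered chromosomes. In 4 bins of about equal gene number by mean level, higher genes made up from 8.94% to 11.2% of a bin. Lower genes made up 15.5%, 20.5%, 10.5% and 8.44% from the lowest to the highest bin, so they were more frequent in the 2 bins of lower level. Over the numbered chromosomes, as the identifiers give them, higher genes ranged from 7.57% on chromosome 25 to 11.9% on chromosome 10, and lower genes from 10.3% on chromosome 11 to 16.3% on chromosomes 16 and 19. Of the 100 most abundant genes, 13 were higher and 7 lower.

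The files give identifiers only, and names came from the study's tables. The table that gave 470 of the 530 names was held only in part, with 594 genes. Few genes with identifiers on chromosomes 4 to 9 had a name. The lists built from names hold named genes only, so their counts, sums and ranks do not describe whole families. Of the called genes, 197 higher and 18 lower had a name. Nearly all these names belong to genes that the study listed as up-regulated at 37 °C against 24 °C after 1 h. The 1 h libraries are not part of the 6 h contrast, but the names, and so the lists below, lean towards heat-activated genes. Each list count of this contrast below stands beside 9.75% of all genes tested that were higher and 13.8% that were lower.

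Of the 69 tested genes in the HSP-related lists (HSP20, HSP70, HSP90, Clp and HSP100, DNAJ, chaperonin, partners of HSP70 and HSP90, and HSFs), 49 (71%) were higher at 37 °C than at 30 °C, 0 were lower and 20 did not pass. Of all genes tested, 9.75% were higher. The median log2 fold change of the 69 was 1.69, beside 0 for all genes tested. In 65 of the 69 both 37 °C libraries lay above both 30 °C libraries, an order that 36.8% of all genes tested had. By limma's treat method 25 were higher, where 430 of all 21429 genes tested were. These 25 included 2 DNAJ genes, 4 chaperonins and 1 partner of HSP70 or HSP90. Added over the lists, the CPM was 22300 and 16800 at 37 °C and 5800 and 4770 at 30 °C. The same genes were higher by a median of 2.6 at 37 °C against 24 °C, a comparison that shares the 37 °C libraries with this one. Replicate 1 exceeded replicate 2 in 59 of the 69 genes at 37 °C and in 58 at 30 °C, against 51.4% and 50.1% of all genes tested. With the replicate number as a block, 49 of the 69 were higher, as in the main fit. The part of the replicate difference in the size of the result was not tested.

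**Figure D2:**
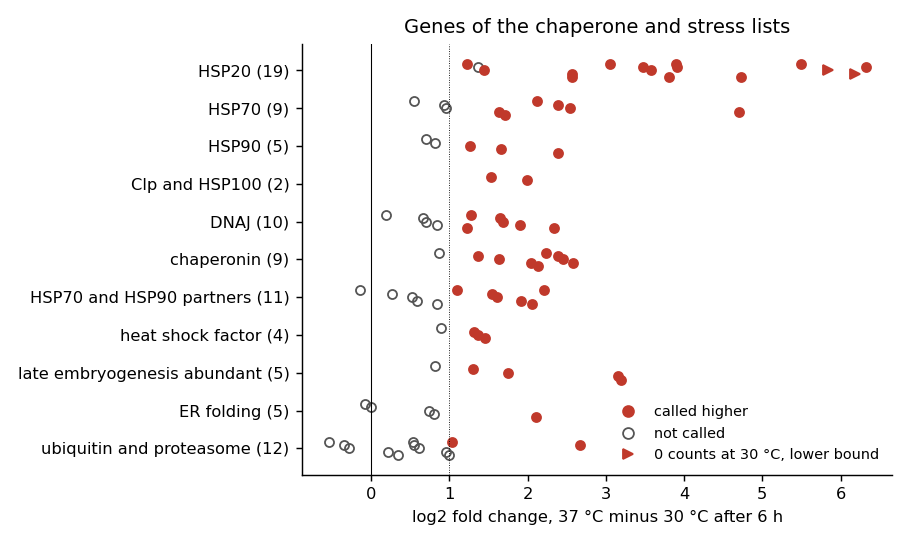
Log2 fold changes between 37 and 30 °C after 6 h are drawn for each gene of 11 lists, with the number of tested genes in parentheses. Filled points passed the test, open points did not, triangles are lower bounds for genes with 0 counts at 30 °C, and 3 HSP20 genes at or under 3 counts in all 4 libraries are left out. HSP20 genes reach the largest differences drawn, and the genes of the ubiquitin list lie from -0.54 to 2.67 with 2 that passed.

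Of 19 HSP20 genes tested, 15 were higher at 37 °C and 0 lower, with a median log2 fold change of 3.8, or 3.68 with 2 genes at their bounds and without 3 genes that had at most 3 counts in each library. Over these 19 genes the CPM came to 5640 and 4040 at 37 °C, 900 and 663 at 30 °C and 321 and 288 at 24 °C. The libraries of the 3 temperatures did not overlap in this sum.

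The most abundant HSP20 gene of the list, Pp3c12_24560, had 1610 and 1230 CPM at 37 °C, 287 and 189 at 30 °C and 26.6 and 26.5 at 24 °C. Both heated groups stood above 24 °C and apart from each other, with a log2 fold change of 2.57 ± 0.31 (SE, n = 2 libraries a group) between 37 and 30 °C (edgeR adjusted p = 5.4e-06). Pp3c1_7030 had 799 and 573 CPM at 37 °C against 16.4 and 14.1 at 30 °C and 2.63 and 1.6 at 24 °C. That is a log2 fold change of 5.49 ± 0.31 between 37 and 30 °C (edgeR adjusted p = 6.4e-09), at both temperatures above the unheated level. Pp3c17_10780 had 217 and 169 CPM at 37 °C and 9.54 and 5.07 at 30 °C, a log2 fold change of 4.73 ± 0.37 (edgeR adjusted p = 8.8e-08). Its 24 °C libraries held 0.685 and 0.863 CPM.

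A few HSP20 genes had no read at 30 °C at all. Pp3c23_14390 had 252 and 147 counts at 37 °C and 0 in both 30 °C and both 24 °C libraries, so it was at least 72.4-fold higher at 37 °C when 3 counts per library are taken as the floor. Pp3c17_1520 had 227 and 88 counts at 37 °C and 0 in the same 4 libraries, at least 57-fold higher. Neither was detected at 30 °C at this depth, and all counts at 37 °C lay far above the floor. Pp3c18_16670, whose promoter sites are printed above, had 67 and 26 counts at 37 °C and 1 and 0 at 30 °C, a ratio of 102 with a 95% counting interval (exact, Clopper-Pearson) of 17.8 to 4070. Without 30 °C replicate 2 its edgeR adjusted p was 0.056. The other HSP20 genes with printed sites were chosen for those sites after their values were seen. Pp3c21_19080 had 696 and 402 CPM at 37 °C, 81.3 and 50.9 at 30 °C and 14.3 and 11.5 at 24 °C, a log2 fold change of 3.05 ± 0.4 over 30 °C. Pp3c24_4390 had 26.1 and 22.3 CPM at 37 °C, 1.61 and 1.58 at 30 °C and 0.913 and 1.48 at 24 °C, a log2 fold change of 3.91 ± 0.39. The 37 and 30 °C libraries did not overlap in either gene.

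The 30 °C libraries carried part of the response of the listed genes. Against 24 °C, 9 of the 19 HSP20 genes were higher at 30 °C, where 0.658% of all genes tested were, and 15 were higher at 37 °C, where 13.8% of all genes were. These comparisons share libraries with the one between 37 and 30 °C. Pp3c16_7110, named after its values were seen, is an example of a gene that had moved at both temperatures. It had 542 and 276 CPM at 37 °C, 29.1 and 26 at 30 °C and 1.6 and 0.863 at 24 °C, with log2 fold changes of 4.45 at 30 °C against 24 °C and 3.89 ± 0.38 at 37 °C against 30 °C. Pp3c13_3880, also named after its values were seen, was abundant without heat. It had 253 and 227 CPM at 24 °C, 300 and 259 at 30 °C and 684 and 618 at 37 °C, where the 30 °C libraries lay close to the 24 °C libraries and the 37 °C libraries stood apart, with a log2 fold change of 1.22 ± 0.18 over 30 °C (edgeR adjusted p = 3.6e-05).

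Reads of close HSP20 copies may not be separable. As an example chosen after its values were seen, the genes Pp3c8_8490 and Pp3c8_9380 share both listed promoter sites, flanks included, the first of which reads as follows.
HSP20 genes Pp3c8_8490 and Pp3c8_9380: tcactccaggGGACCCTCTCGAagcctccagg
Pp3c8_8490 had 6 and 10 counts at 37 °C and 1 and 0 at 30 °C, a ratio of 17.5 with a counting interval of 2.72 to 735, and it passed the test (edgeR adjusted p = 0.031). Pp3c8_9380 had 0.382 and 0.131 CPM at 37 °C and 0 in both 30 °C libraries, all at or under 3 counts, and its edgeR adjusted p was 0.13. How reads that fit both copies were assigned is not given in the sources used here.

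**Figure D3:**
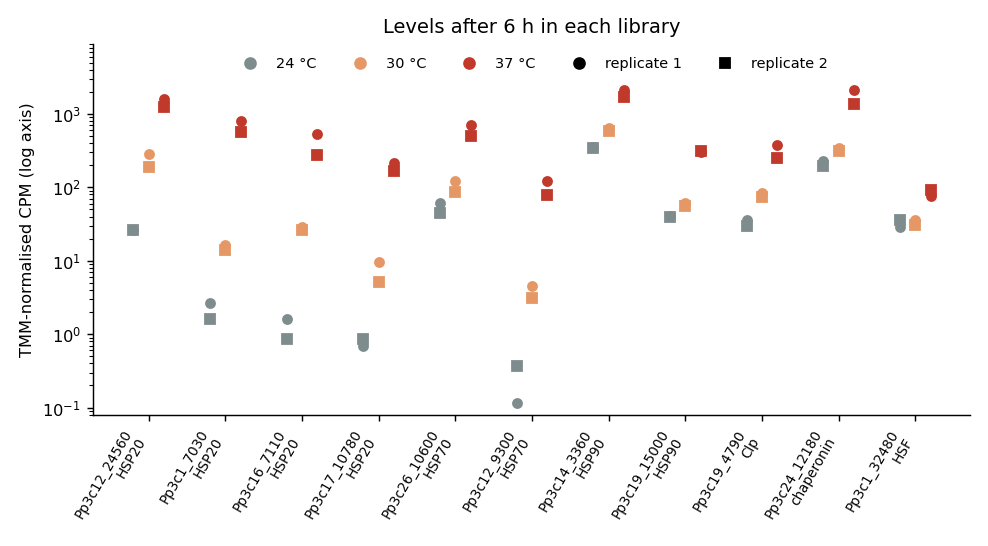
TMM-normalised CPM after 6 h is shown on a log axis for 11 chaperone and HSF genes in each library, coloured by temperature, with circles for replicate 1 and squares for replicate 2. The 37 °C libraries lie above the 30 °C libraries for every gene shown, from 799 and 573 against 16.4 and 14.1 CPM for Pp3c1_7030 to 77.4 and 92.8 against 35.4 and 30.3 CPM for Pp3c1_32480.

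HSP70 genes, the central refolding chaperones, were higher at 37 °C in 6 of 9 and lower in 0, with a median log2 fold change of 1.71. Pp3c12_9300 went from 0.114 and 0.37 CPM at 24 °C and 4.58 and 3.15 at 30 °C to 122 and 78.9 at 37 °C, a log2 fold change of 4.7 ± 0.37 over 30 °C (edgeR adjusted p = 9.2e-08). Its 3 temperatures did not overlap. The most abundant member, Pp3c26_10600, had 717 and 503 CPM at 37 °C, 124 and 85.5 at 30 °C and 61.9 and 45.4 at 24 °C, with a log2 fold change of 2.54 ± 0.31 (edgeR adjusted p = 7.1e-06). The 3 members that did not pass had log2 fold changes from 0.55 to 0.96.

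HSP90 genes were higher in 3 of 5 tested and lower in 0, with a median log2 fold change of 1.26. Pp3c14_3360 was among the most abundant chaperone genes, with 2150 and 1710 CPM at 37 °C, 641 and 579 at 30 °C and 360 and 347 at 24 °C. Its log2 fold change over 30 °C was 1.66 ± 0.16 (edgeR adjusted p = 4.7e-07), and the groups did not overlap. Pp3c19_15000 had 303 and 309 CPM at 37 °C, 61.2 and 56 at 30 °C and 41.2 and 39.5 at 24 °C, a log2 fold change of 2.39 ± 0.2 (edgeR adjusted p = 1.7e-07). The HSP90 gene whose GAAGCTTC site is printed above, Pp3c9_6640, had 58.7 and 36.5 CPM at 37 °C and 30.4 and 23.7 at 30 °C and did not pass (edgeR adjusted p = 0.093).

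Both Clp ATPase genes of the list, named after their values were seen, were higher at 37 °C. Pp3c19_4790 had 382 and 248 CPM at 37 °C, 85 and 73.3 at 30 °C and 36.2 and 30.2 at 24 °C, a log2 fold change of 1.99 ± 0.31. Pp3c24_9060 had 260 and 266 CPM at 37 °C, 92.9 and 89.3 at 30 °C and 60.3 and 74.6 at 24 °C, a log2 fold change of 1.53 ± 0.16. In both genes the 30 °C libraries lay between those of 24 and 37 °C.

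Chaperonins had the largest summed level of the HSP-related lists. Of 9 tested, 8 were higher and 0 lower, with a median log2 fold change of 2.13. The sum of the list was 6190 and 4570 CPM at 37 °C against 1340 and 1210 at 30 °C. The TCP-1/cpn60 gene Pp3c24_12180 had 2100 and 1360 CPM at 37 °C, 346 and 318 at 30 °C and 228 and 194 at 24 °C, a log2 fold change of 2.39 ± 0.23 (edgeR adjusted p = 5.4e-07). Pp3c26_2180, the TCP-1/cpn60 gene with a printed site, had 1190 and 978 CPM at 37 °C, 241 and 218 at 30 °C and 114 and 115 at 24 °C, a log2 fold change of 2.24 ± 0.21. Within this list the 30 °C libraries stood nearer to 24 °C than to 37 °C for both genes. The small co-chaperonin genes Pp3c22_7570 and Pp3c22_7600, listed as chaperonin 20 and close together in the identifier order, were low at 30 °C (0.496 and 0.788, and 1.36 and 0.901 CPM). At 37 °C they reached 4.33 and 3.54, and 6.49 and 5.9 CPM, with log2 fold changes of 2.58 ± 0.64 and 2.45 ± 0.41.

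DNAJ genes, which hand proteins to HSP70, were higher in 6 of 10 and lower in 0, with a median log2 fold change of 1.25. Pp3c2_9790 had 318 and 266 CPM at 37 °C against 59.5 and 55.9 at 30 °C, a log2 fold change of 2.34 ± 0.24 (edgeR adjusted p = 9.7e-07), while the abundant Pp3c19_10440 had 875 and 605 against 281 and 179, a log2 fold change of 1.69 ± 0.25. In both, every 37 °C value lay above every 30 °C value. Another DNAJ gene, Pp3c21_19850, had 723 and 543 CPM against 213 and 125, with a log2 fold change of 1.9 ± 0.29.

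Among the other partners, 6 of 11 were higher and 0 lower, with a median log2 fold change of 1.1. Fes1A (Pp3c16_19440), a nucleotide exchange factor of HSP70 in Arabidopsis, had 217 and 173 CPM at 37 °C, 46.5 and 37.8 at 30 °C and 26.3 and 17.6 at 24 °C, a log2 fold change of 2.21 ± 0.31. The BAG family gene Pp3c13_3400, listed as BCL-2-associated athanogene 6, had 109 and 69.9 CPM at 37 °C, 25.4 and 17.7 at 30 °C and 4.45 and 2.84 at 24 °C, a log2 fold change of 2.06 ± 0.4. Both genes carry printed sites and had groups without overlap. The stress-inducible protein Pp3c11_20290 was the most abundant partner, with 354 and 323 CPM against 172 and 144, and its log2 fold change of 1.1 ± 0.15 fell to 0.97, under the limit of 1, when libraries were scaled by their totals and also without 30 °C replicate 2.

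HSF genes were higher in 3 of 4 tested and lower in 0, with a median log2 fold change of 1.34. None of them passed limma's treat or edgeR's glmTreat, which test against the limit of 1 itself. Pp3c21_18820, listed as HSF4, had 36.4 and 30.6 CPM at 37 °C, 14.3 and 10.4 at 30 °C and 14.7 and 11.6 at 24 °C, a log2 fold change of 1.45 ± 0.31 over 30 °C (edgeR adjusted p = 0.0012). The 30 and 24 °C values overlapped, and the 37 °C values stood above both. Pp3c1_32480, listed as heat shock factor 3, had 77.4 and 92.8 CPM at 37 °C, 35.4 and 30.3 at 30 °C and 28.7 and 36.1 at 24 °C, a log2 fold change of 1.37 ± 0.32 (edgeR adjusted p = 0.0024). None of the 4 HSF genes tested was higher at 30 °C than at 24 °C by the same test after 6 h, where the fitted log2 differences ran from -0.1 to 0.31.

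The genes with listed HSF sites were described against others of their module. All 49 stood among the first 100 genes of the yellow module in the study's table, a module that the study built in part on the 37 °C 6 h libraries, so its direction is no independent evidence. Of the 49 genes with a site, 33 (67.3%) were higher at 37 °C than at 30 °C, with a median log2 fold change of 1.22. Of the other 51 of the first 100, 23 (45.1%) were higher, with a median of 1.02, and of the remaining 463 genes of the module, 221 (47.7%) were, with a median of 1.07. Together these are 277 (49.2%) of 563, and none was lower. The study searched for motifs only in the promoters of the top 100 genes of a module, so whether the remaining 463 hold sites is not known. After 1 h the counts were 46 of 49 with a site and 46 of 51 without, after 12 h 35 in each set, and after 24 h 31 in each. Of the 14 genes with GAANNTTC in a site, 7 were higher after 6 h, and of the 38 genes with a site that starts with GAA, 25 were. By limma's treat 9 of the 49 site genes and 90 of the 563 were higher, and by glmTreat 17 and 137. The counts with and without a site were not tested against each other.

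Other stress groups were mixed. Late embryogenesis abundant (LEA) proteins, which protect membranes and proteins of drying cells, were higher in 4 of 5 and lower in 0. Pp3c22_13190 had 78.1 and 81.2 CPM at 37 °C, 9.67 and 7.77 at 30 °C and 4.11 and 4.44 at 24 °C, a log2 fold change of 3.19 ± 0.42 (edgeR adjusted p = 1.3e-05), and the dehydrin Pp3c13_20930 had 67 and 57.1 against 7.68 and 6.19, a log2 fold change of 3.16 ± 0.37. The most abundant LEA gene, Pp3c20_10750, had 128 and 136 CPM at 37 °C and 42 and 36.6 at 30 °C, a log2 fold change of 1.75 ± 0.22. All 3 had groups without overlap.

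Of 12 ubiquitin and proteasome genes tested, 2 were higher and 0 lower, where 9.75% of all genes were higher, with a median log2 fold change of 0.54. The count was 1 with library totals and with both treat methods. The RING/U-box gene Pp3c7_700, a ubiquitin ligase by its domain and 1 of the genes with a printed site, had 43.4 and 41.1 CPM at 37 °C, 7.19 and 6.08 at 30 °C and 3.2 and 2.71 at 24 °C, a log2 fold change of 2.67 ± 0.24 (edgeR adjusted p = 2.8e-07). A second RING/U-box gene, Pp3c15_2690, passed narrowly at 1.03 ± 0.17 and fell to 0.9 with library totals. The most abundant member, the polyubiquitin gene Pp3c19_8830, had 518 and 393 CPM at 37 °C and 616 and 494 at 30 °C, which overlap, with a log2 fold change of -0.28 ± 0.25 (edgeR adjusted p = 0.38).

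Of 5 genes of endoplasmic reticulum folding and stress, 1 was higher and 0 lower. The Bax inhibitor-1 family gene Pp3c3_15530, a kind of gene that restrains cell death at the endoplasmic reticulum in Arabidopsis, had 160 and 135 CPM at 37 °C and 36.6 and 32 at 30 °C, a log2 fold change of 2.11 ± 0.22. Its more abundant relative Pp3c1_12850 had 696 and 640 against 379 and 391, a log2 fold change of 0.8 ± 0.15 that was under the limit. Of 3 mitochondrial import genes, 2 were higher, among them the TIM17 type translocase Pp3c19_6080 with 209 and 196 CPM against 54.8 and 42.9 (log2 fold change 2.05 ± 0.19) and the Zim17 type gene Pp3c10_20870 with 58.4 and 42 against 17.2 and 16.7 (1.57 ± 0.28). Of these 2, 1 passed with each treat method. Of 3 redox genes, 1 was higher (0 with limma's treat), the thioredoxin H gene Pp3c1_28390, with 617 and 703 CPM against 202 and 173 and a log2 fold change of 1.82 ± 0.28. The glutaredoxin gene Pp3c20_5650 had 57.8 and 58.5 against 51.5 and 52.1 (log2 fold change 0.17 ± 0.2).

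Of 4 DNA repair and replication genes, 1 was higher and 1 lower. The DNA ligase IV-binding protein gene Pp3c14_21160 had 27.9 CPM in both 37 °C libraries and 10.5 and 14.1 at 30 °C, a log2 fold change of 1.18 ± 0.23 that fell to 0.99 without 30 °C replicate 1. The polymerase epsilon catalytic subunit gene Pp3c16_7660 had 171 and 217 CPM at 37 °C and 289 and 495 at 30 °C. Its log2 fold change of -1.02 ± 0.37 lost its call without 30 °C replicate 2 (-0.57), without either 37 °C replicate (-0.86 and -1.19), with limma-voom (-0.97), with both treat methods and with the replicate number as a block (-1 after rounding, edgeR adjusted p = 0.026). None of 3 cyclin and kinesin genes passed. In this list the kinesin-like gene Pp3c16_15000 had 86 and 133 CPM against 53.8 and 59.6 (log2 fold change 0.95 ± 0.25), and passed without 37 °C replicate 1 (1.23) or 30 °C replicate 2 (1.03). The inhibitor of cyclin-dependent kinases Pp3c23_21800, listed as SMR3-like, had 28.4 and 12.1 CPM at 37 °C and 26.4 and 32.8 at 30 °C, with a log2 fold change of -0.55 ± 0.38 that became -1.29 and passed without 37 °C replicate 1. Lists for cell wall, light harvesting, translation initiation and ribosomal proteins held only 1 or 2 tested genes each, of which the translation initiation gene was higher.

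Of 3 Calvin cycle genes, 1 was higher. The Rubisco small chain gene Pp3c3_12330 was barely present at 30 °C, with 0.743 and 0.451 CPM, and had 19.1 and 8.4 CPM at 37 °C and 0 in both 24 °C libraries, a log2 fold change of 4.5 ± 0.56 over 30 °C (edgeR adjusted p = 2.2e-05). Its relative Pp3c3_12530 had 108 and 57.9 CPM at 37 °C and 62 and 58.6 at 30 °C, against 9.93 and 7.03 at 24 °C. These heated groups overlapped (log2 fold change 0.46 ± 0.27), and both stood above 24 °C. The transketolase gene Pp3c20_1720 had 98.6 and 139 CPM against 92.9 and 160, with no difference that passed (-0.09 ± 0.46).

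Other named genes were among the largest differences. Pp3c10_2370, a receptor-like kinase with leucine-rich repeats, had 32.9 and 28.2 CPM at 37 °C, 1.12 and 0.338 at 30 °C and 0 in both 24 °C libraries, a log2 fold change of 5.39 ± 0.42 (edgeR adjusted p = 1.4e-07). Pp3c19_9690, of the auxin efflux carrier family of hormone transporters, had 18.8 and 16 CPM at 37 °C and 0.248 and 0.563 at 30 °C, a log2 fold change of 5.35 ± 0.68 (edgeR adjusted p = 2e-05). Both were near 0 in unheated tissue. The WRC protein gene Pp3c14_20850 had 5.6 and 10.5 CPM at 37 °C and 0.248 and 0.338 at 30 °C, with a log2 fold change of 4.7 ± 0.78. An unnamed gene, Pp3c19_2600, was the most abundant of the yellow module, with 3240 and 2470 CPM at 37 °C, 534 and 409 at 30 °C and 203 and 181 at 24 °C, and a log2 fold change of 2.6 ± 0.22.

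Some genes were read at only one of the temperatures. In 23 genes both 30 °C libraries had 0 counts and both 37 °C libraries at least 10, and 12 of these were also at 0 in both 24 °C libraries. Besides the HSP20 genes Pp3c23_14390 and Pp3c17_1520, which are the 2 with a name, the set held the unnamed gene Pp3c8_16760, with 138 and 164 counts at 37 °C, at least 55.1-fold higher. With limma-voom this gene did not pass. In 28 genes both 37 °C libraries had 0 counts and both 30 °C libraries at least 10, none of them named. In that set Pp3c17_16150, chosen after its values were seen, had 77 and 125 counts at 30 °C, at least 30.5-fold lower at 37 °C. By the naming rule 2 further unnamed genes stand for the lower side. Pp3c6_23160 had 176 and 247 counts at 30 °C and 1 and 0 at 37 °C, 386-fold lower with a counting interval of 68.9 to 15300, and Pp3c13_9000 had 236 and 141 counts at 30 °C and the same 1 and 0 at 37 °C, 344-fold lower with an interval of 61.4 to 13600. The intervals cover counting error only.

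Homologs of photoreceptor and circadian clock genes, taken from the study's list, went both ways. Of 50 tested, 7 (14%) were higher and 7 (14%) lower, near the 9.75% and 13.8% of all genes, and their median log2 fold change was 0.04, or -0.09 with library totals. Limma's treat called 2 higher and 1 lower, and glmTreat 2 and 2. Members assigned to the same Arabidopsis gene differed from each other. The homologs of COP1, a ubiquitin ligase that represses light signalling in darkness, held both an abundant gene that was higher and a low gene that was lower. Pp3c2_24290 had 540 and 450 CPM at 37 °C, 99 and 106 at 30 °C and 86.1 and 104 at 24 °C, a log2 fold change of 2.27 ± 0.25 (edgeR adjusted p = 2e-06). Pp3c5_26150 had 4.33 and 4.86 CPM at 37 °C, 21.2 and 18.6 at 30 °C and 22 and 17.3 at 24 °C, a log2 fold change of -2.11 ± 0.21 (edgeR adjusted p = 1.1e-06). For both, 30 and 24 °C overlapped and 37 °C stood apart.

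**Figure D4:**
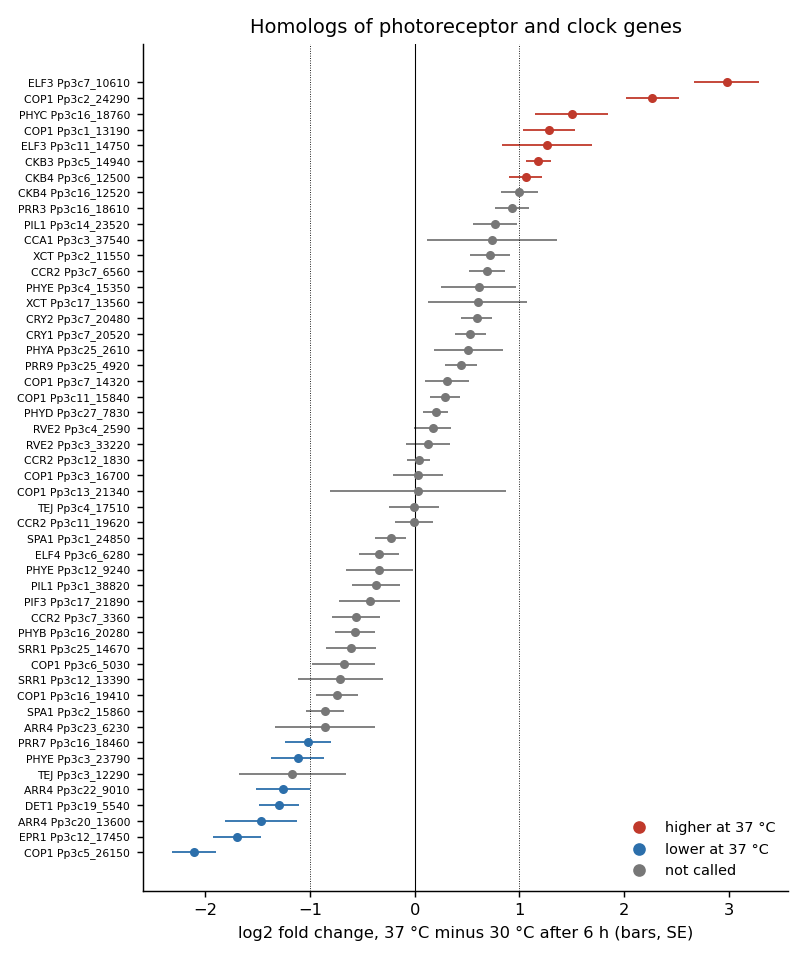
Log2 fold changes between 37 and 30 °C after 6 h with their standard errors are drawn for 50 homologs of photoreceptor and clock genes, labelled with the Arabidopsis gene of the study's list. They run from -2.11 for a COP1 homolog to 2.98 for an ELF3 homolog, with 7 called in each direction.

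ELF3 represses growth genes in the evening in Arabidopsis and loses activity in warmth. Pp3c7_10610 had 12.1 and 23.5 CPM at 37 °C, 1.98 and 2.48 at 30 °C and 4 and 4.69 at 24 °C, a log2 fold change of 2.98 ± 0.31 (edgeR adjusted p = 1.2e-06). Pp3c11_14750, named after its values were seen, had 26.6 and 30.6 CPM at 37 °C, 5.95 and 17.8 at 30 °C and 57.4 and 67.6 at 24 °C. It was above 30 °C (1.26 ± 0.43, edgeR adjusted p = 0.027) and below 24 °C (-1.13), and was lower at 30 °C than at 24 °C (-2.38). The call over 30 °C was lost without 30 °C replicate 1 (0.68, edgeR adjusted p = 0.26), without 37 °C replicate 1 (1.35, adjusted p = 0.055) or 2 (1.15, adjusted p = 0.1), in a fit of the 4 libraries alone (1.24) and with both treat methods, and the value rose to 2.26 without 30 °C replicate 2.

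On the lower side stood the EPR1 homolog Pp3c12_17450, a MYB type clock gene, with 12.6 and 6.43 CPM at 37 °C, 35.1 and 26.8 at 30 °C and 43.6 and 40.1 at 24 °C, a log2 fold change of -1.7 ± 0.23 (edgeR adjusted p = 2.2e-05). The ARR4 homolog Pp3c20_13600, of the family of cytokinin response regulators, had 2.93 and 2.36 CPM at 37 °C and 5.2 and 9.46 at 30 °C. Its log2 fold change of -1.47 ± 0.34 became -0.97, under the limit, without 30 °C replicate 2. The DET1 homolog Pp3c19_5540, the PRR7 homolog Pp3c16_18460 and the PHYC homolog Pp3c16_18760 were named after their values were seen. DET1, a partner of light repression, had 53.7 and 45.1 CPM at 37 °C against 126 and 117 at 30 °C and 76 and 62.8 at 24 °C, so the 30 °C libraries were the highest of the 3 temperatures, with a log2 fold change of -1.3 ± 0.19. PRR7, a repressor in the clock, had 111 and 97.4 against 209 and 214 (-1.02 ± 0.22), and lost its call without 37 °C replicate 2 (-0.93) and with both treat methods. The phytochrome gene had 51.4 and 49.1 against 17.3 and 18.1 (1.5 ± 0.35). The DET1, PHYC and ARR4 homologs also lost their calls with both treat methods, and the EPR1 homolog lost its call with limma's treat. The most abundant homolog of the list, the CCR2 homolog Pp3c7_6560, which codes for an RNA-binding protein, had 7870 and 9120 CPM at 37 °C, 5160 and 5380 at 30 °C and 2530 and 2810 at 24 °C. The 3 temperatures did not overlap, and its log2 fold change over 30 °C of 0.69 ± 0.17 was under the limit of 1.

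Besides the clock homologs Pp3c5_26150, Pp3c12_17450 and Pp3c20_13600, the named genes with the largest decreases were 5 that the study had listed as raised at 37 °C early in the treatment. The B-box zinc finger gene with a CCT domain, Pp3c11_6300, had 1.66 and 1.84 CPM at 37 °C and 12.6 and 5.52 at 30 °C, a log2 fold change of -2.36 ± 0.5 (edgeR adjusted p = 0.0011). The gene Pp3c10_2740, with a BRO1-like domain of endosomal sorting proteins, had 3.06 and 1.05 against 7.31 and 12.5, a log2 fold change of -2.26 ± 0.61 that did not pass without 30 °C replicate 2 (-1.82) or 37 °C replicate 2 (-1.7). The protein kinase gene Pp3c16_7450 had 18.6 and 9.19 against 42.3 and 52.3 (-1.76 ± 0.28). In each the 30 °C values lay above the 37 °C values. The acyl carrier protein thioesterase gene Pp3c18_15010, whose product releases fatty acids in the plastid, had 9.93 and 6.3 CPM against 24 and 21.5 (-1.48 ± 0.28). The P-loop hydrolase gene Pp3c25_6240 had 8.15 and 5.51 against 20.1 and 21.7 (-1.61 ± 0.22). None of these 5 genes passed limma's treat method.

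The same contrast at the other times uses other libraries. After 1 h, 1749 genes (8.16%) were higher at 37 °C than at 30 °C and 1158 (5.4%) lower, 13.6% in all. After 12 h, 2551 (11.9%) were higher and 3357 (15.7%) lower, 27.6% in all. At 24 h the numbers were 2726 (12.7%) and 3494 (16.3%), 29% in all. Of the 2089 genes higher after 6 h, 683 were also called higher after 1 h (32.7% of the 6 h genes and 39.1% of the 1 h genes). At 12 h the shared number was 1386 (66.3% and 54.3%) and at 24 h it was 951 (45.5% and 34.9%). Of the 2948 lower genes, 533 were also lower at 1 h (18.1% and 46%), 2100 at 12 h (71.2% and 62.6%) and 1546 at 24 h (52.4% and 44.2%). Of the genes higher and lower after 6 h, 0.191% and 0.305% were called in the opposite direction at 12 h, 1.05% and 2.68% at 1 h, and 2.01% and 3.43% at 24 h. At all 4 times 327 genes were higher and 309 lower, while 412 were higher and 595 lower after 6 h and at no other time by these calls.

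The difference between the contrasts was itself tested. The 37 against 30 °C difference was larger in the upward direction after 6 h than after 1 h in 1125 genes (5.25%) and shifted downward in 2097 (9.79%). Between 6 and 12 h the same test called 200 genes (0.933%) upward and 112 (0.523%) downward, and these 312 fell to 162 without 30 °C replicate 1 and to 146 without 30 °C replicate 2. Of the 69 HSP-related genes, 4 had a larger difference after 6 h than after 1 h and 16 a smaller one. Of the 12 ubiquitin genes 7 had a smaller one and 0 a larger one. Most of these genes have a name because the study listed them as up-regulated at 37 °C after 1 h. The 1 h libraries enter this test, so that choice favours a smaller difference after 6 h. After 1 h, 67 of the 69 and 10 of the 12 were called higher at 37 °C than at 30 °C.

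The HSP20 gene Pp3c1_7030 had 3710 and 3490 CPM after 1 h at 37 °C and 799 and 573 after 6 h, while at 30 °C it had 1010 and 722 after 1 h and 16.4 and 14.1 after 6 h. At 24 °C it had 117 and 94 raw counts after 1 h and 23 and 13 after 6 h, the latter in larger libraries. The level was thus lower after 6 h at all 3 temperatures, the unheated one included, and the log2 difference between 37 and 30 °C grew from 2.06 to 5.49 (edgeR adjusted p of the change 1.3e-05). It was 5.09 after 12 h and 4.04 after 24 h. The polyubiquitin gene Pp3c19_8830 had 2860 and 2800 CPM after 1 h at 37 °C and 411 and 255 at 30 °C, a log2 difference of 3.09. After 6 h both temperatures stood between 393 and 616 CPM. At 24 °C it had 256 and 306 CPM after 1 h and 424 and 420 after 6 h.

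The EPR1 homolog Pp3c12_17450 changed sides. After 1 h it had 219 and 196 CPM at 37 °C and 66.9 and 54.8 at 30 °C, and after 6 h the 37 °C libraries, at 12.6 and 6.43, were below the 30 °C libraries at 35.1 and 26.8. At 24 °C it had 76.1 and 68.5 CPM after 1 h and 43.6 and 40.1 after 6 h. The log2 difference went from 1.77 to -1.7, and was -0.14 at 12 h and 1.32 at 24 h. The ELF3 homolog Pp3c7_10610 had a low point after 6 h without heat as well, with 25.1 and 25.6 CPM at 24 °C after 1 h, 4 and 4.69 after 6 h and 42 and 46.3 after 12 h. It had 21.9 and 26.4 CPM at 30 °C after 1 h, 1.98 and 2.48 after 6 h and 53.6 and 53 after 12 h, and 23.1 and 30.2, 12.1 and 23.5, and 76 and 64.8 CPM at 37 °C. Its difference between temperatures passed after 6 h and was 0.14 at 1 h, 0.4 at 12 h and 0.68 at 24 h. In time order, HSF4 (Pp3c21_18820) had log2 differences of 3.37, 1.45, 1.46 and 0.88, and the RING/U-box gene Pp3c7_700 had 3.9, 2.67, 2.23 and 1.39.

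**Figure D5:**
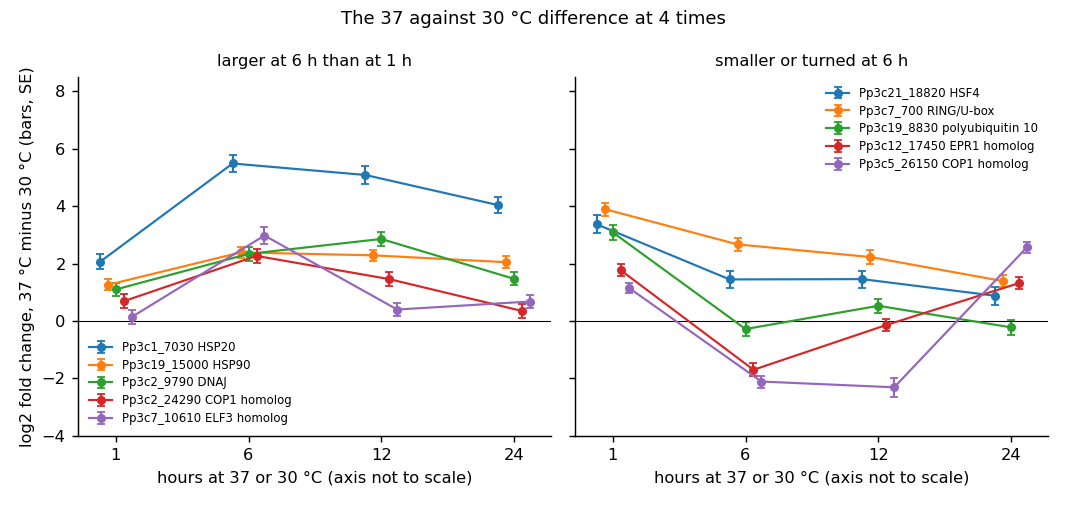
The log2 fold change between 37 and 30 °C with its standard error is drawn at 1, 6, 12 and 24 h for 5 genes with a larger difference after 6 h than after 1 h (left) and 5 with a smaller or turned difference (right). Pp3c1_7030 goes from 2.06 to 5.49, and the EPR1 homolog Pp3c12_17450 from 1.77 to -1.7.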

How the data were processed

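RNA of 24 libraries was sequenced by the study as stranded polyA libraries on an Illumina HiSeq 2500. Per the labels and the study's methods, the authors used bcl2fastq 1.8.4, aligned reads with BWA 0.7.17.1 and counted them per gene with featureCounts at default settings, and the deposited values are raw counts. Default counting ignores strand, so reads of genes that overlap, antisense ones included, cannot be told apart. Genes above 0.5 CPM in at least 2 libraries were kept, scaled by TMM and tested with edgeR 4.0.16 (glmQLFit and glmQLFTest, R 4.3.3) in 1 model of 12 groups with 12 residual degrees of freedom. The filter and scaling follow the study, which states limma. Limma 3.58.1 and DESeq2 1.42.0 were alternatives, and the closing section gives their effect. Standard errors are the log2 fold change divided by the root of F. An exact permutation test of 2 against 2 libraries could not go below p = 0.333. The self-test ran on simulated data with known changes. Names of 530 genes came from the study's tables, and 0 identifiers matched the RefSeq table. Members and lists were chosen with earlier results of these data known. Named genes were the 8 named genes with the largest change in each direction (groups without overlap, mean log2 CPM of at least 1). For each list of at least 3, the 2 largest changes and the most abundant member were added. So were the 2 largest changes in each direction among genes without a name, under the same limits on overlap and level. Tables of the study that were held only in part gave most of the names, so the lists built from names are incomplete. No count of shared calls was made with those tables. Counting intervals and floors (3 counts per library) cover counting error only.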

Additional observations from a re-analysis of the deposited data

Results flagged for a closer look

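The difference between 37 and 30 °C changed between 6 h and another time in the following named genes, by edgeR's test of the change itself. Each value is the log2 difference after 6 h minus that at the other time. Apart from the clock homologs, most names belong to genes that the study listed as up-regulated at 37 °C after 1 h. That choice favours a downward shift against 1 h.

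Against 1 h, the difference was larger after 6 h for the HSP20 gene Pp3c1_7030 (3.44), the ELF3 homolog Pp3c7_10610 (2.84), the COP1 homolog Pp3c2_24290 (1.58), the DNAJ gene Pp3c2_9790 (1.24) and the HSP90 gene Pp3c19_15000 (1.12). Among stress genes it was smaller for the polyubiquitin gene Pp3c19_8830 (-3.37), HSF4 Pp3c21_18820 (-1.93), the RING/U-box gene Pp3c7_700 (-1.23), the glutaredoxin gene Pp3c20_5650 (-1.08) and the Clp ATPase gene Pp3c24_9060 (-1.05). In the Calvin cycle list it was smaller for the Rubisco small chain gene Pp3c3_12530 (-1.77).

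Clock homologs shifted downward against 1 h were EPR1 Pp3c12_17450 (-3.47), COP1 Pp3c5_26150 (-3.27), DET1 Pp3c19_5540 (-2.02) and PRR7 Pp3c16_18460 (-1.01). Genes of growth and replication with a downward shift were the SMR3-like inhibitor Pp3c23_21800 (-3.45) and the polymerase epsilon gene Pp3c16_7660 (-2.65). The named genes with large decreases shifted likewise, namely the B-box gene Pp3c11_6300 (-4.65), the protein kinase gene Pp3c16_7450 (-3.89), the BRO1-like gene Pp3c10_2740 (-3.81), the thioesterase gene Pp3c18_15010 (-2.77) and the P-loop gene Pp3c25_6240 (-2.02). The study had listed these genes as raised at 37 °C early in the treatment, and they were picked here for a large decrease after 6 h. The direction of their shift largely follows from this choice and is no separate result. The unnamed genes Pp3c13_9000 (-8.28) and Pp3c6_23160 (-8.02) had 1 and 0 counts at 37 °C after 6 h, so the fitted size of their shift depends on the prior count and is no bound.

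Against 12 h, the difference after 6 h was larger for the HSP20 gene Pp3c17_10780 (2.62) and the ELF3 homolog Pp3c7_10610 (2.58) and lower for the EPR1 homolog Pp3c12_17450 (-1.55).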

How the results depend on the processing

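The 2 libraries per group limit precision. No called gene turned direction under any of the 16 alternatives run. With limma's treat method 430 genes were higher and 823 lower, 25 HSP-related genes were higher, and the change from 1 h was called in 346 genes and that from 12 h in 1. With edgeR's glmTreat 740 were higher and 1346 lower, with 855 and 11 calls for the 2 changes. Without a fold change limit 4562 were higher and 4687 lower. DESeq2 called 528 genes for the change from 12 h, against 312 in the report. Leaving out 1 of the 4 libraries at a time gave 1635 to 1967 higher genes, 2543 to 2774 lower genes, 44 to 51 higher HSP-related genes, 2483 to 3152 changes from 1 h and 146 to 257 changes from 12 h, with 146 without 30 °C replicate 2 and 162 without 30 °C replicate 1. The causes were not tested.

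Scaling by library totals shifted the median difference over the genes tested to -0.13 (log2), called 5122 genes and kept 4645 of the 5037, with 33.1% of calls higher against 41.5%. It turned 4 clock genes and 0 HSP-related genes in sign. Among single genes, Pp3c3_12530 ranged from -0.06 without 37 °C replicate 1 to 0.84 without 37 °C replicate 2, and Pp3c20_1720 from -0.43 without 30 °C replicate 1 to 0.35 without 30 °C replicate 2, with 0.13 without 37 °C replicate 1. Neither was called where its sign turned. Of the other values of named genes, 63 lost their call and 6 gained one.

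The replicate numbers are shared between groups. Over 17170 genes, the differences between replicates 1 and 2 correlated at r = 0.245 between 37 and 30 °C, 0.325 between 37 and 24 °C and 0.171 between 30 and 24 °C. No label ties the numbers to a shared culture or day and there are only 2 of them, so whether they pair the samples was not settled. With the replicate block 5052 genes were called, 4976 of the 5037 among them, 2092 higher and 2960 lower, and 49 HSP-related genes were higher, with 3286 and 359 calls for the changes from 1 and 12 h. Among the named genes the block ended the call of Pp3c16_7660 (-1 after rounding, edgeR adjusted p = 0.026), and the DNA repair list had 0 lower genes.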
